A study of Mus musculus with 16 samples.

Results

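The 7 genes described here are the 3 RUNX transcription factors Runx1, Runx2 and Runx3, their shared subunit Cbfb, the corepressors Cbfa2t3 and Runx1t1, and Myb. They were taken by gene symbol from a table of 54347 mouse genes, and all 7 were found once. The table held 16 bulk RNA-seq libraries from bone marrow in 4 groups of 4. URE mice carried a deletion of the upstream regulatory element (URE), a distal enhancer of Spi1, the gene of the transcription factor PU.1, in every cell, and WT mice were littermates without the deletion. All mice were on the C57BL/6 background and 8 to 12 weeks old. LSKs, the compartment with blood stem and multipotent cells, were sorted as Lin-Sca-1+c-Kit+ cells, and granulocyte-monocyte progenitors (GMPs) as Lin-Sca-1-c-Kit+Cd16/32+ cells. The groups were therefore WT LSK, URE LSK, WT GMP and URE GMP, and a sorted pool can change by its cell composition as well as by expression per cell, so fewer cells of a type and less RNA per cell cannot be told apart here.

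RUNX proteins bind DNA through the Runt domain as heterodimers with CBFB, which does not touch DNA itself but raises the affinity of the complex. Runx1 is required for the first blood stem cells to form in the embryo and later for megakaryocytes and lymphocytes, Runx2 is best known as the master factor of bone-forming cells, and Runx3 acts in cytotoxic T cells and other lymphocytes. RUNX1 is also a known regulator of Spi1 and binds at its upstream enhancer. Runx1t1 and Cbfa2t3 encode the ETO family corepressors ETO and ETO2: RUNX1 is fused to ETO in a form of acute myeloid leukaemia, and ETO2 joins the SCL (TAL1) complex with GATA and LIM-only proteins in stem, erythroid and megakaryocytic cells. Myb encodes a transcription factor that keeps blood progenitors immature and dividing and opens myeloid genes such as Mpo and Elane.

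In GENCODE M21 on GRCm38, Runx1 lies at chr16:92601466-92826149 on the minus strand, Runx2 at chr17:44495987-44814797 on the minus strand and Runx3 at chr4:135120652-135177990 on the plus strand. Cbfb lies at chr8:105170674-105217989 on the plus strand, Cbfa2t3 at chr8:122625141-122699109 on the minus strand, Runx1t1 at chr4:13743436-13893649 on the plus strand and Myb at chr10:21124935-21160984 on the minus strand. None shares the chromosome of Spi1, which is chromosome 2. Antisense genes overlap the exons of Runx1 (0.9% of its exonic bases), Cbfa2t3 (3.5%), Runx2 (5.9%, with Runx2os1) and Myb (6.3%), and reads of the 2 strands could not be told apart because the libraries were not stranded.

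RefSeq start-site windows (GRCm38.p6, 250 bases before and 50 bases from each start) were available for 6 of the 7 genes, all but Runx1t1. They were searched on both strands for the RUNX core TGTGGT and for the PU.1 core GAGGAAGT. A RUNX core on the opposite strand reads ACCACA. These motifs do not overlap each other. The windows of all 3 RUNX genes held the same 18-base string with 2 RUNX cores, shown in capitals below because it is the feature that the family shares and the rule for choosing the genes did not use. The sequences are written 5′ to 3′ on the strand of each gene and come from chr16:92826025-92826054 (Runx1, upstream start), chr17:44814583-44814612 (Runx2) and chr4:135120503-135120532 (Runx3, upstream start).
Runx1: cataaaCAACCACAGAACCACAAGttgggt
Runx2: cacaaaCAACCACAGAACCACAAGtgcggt
Runx3: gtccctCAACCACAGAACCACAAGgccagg

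The string began 26 bases after the start in Runx1, 21 bases after it in Runx2 and 136 bases before it in Runx3. It was obtained as the longest string common to these windows of the RUNX genes, so its presence in them was fixed by the search. The string occurred in 4 of 32851 mouse windows (0.012%), the fourth being the window of Gm16225, which overlaps that of Runx3 on the opposite strand. A RUNX core alone occurred in 16.8% of all windows. The PU.1 core occurred in 3.2% of windows, and among these genes in the upstream window of Cbfa2t3 (chr8:122699328-122699357, minus strand) and in the window of Cbfb (chr8:105170665-105170694, plus strand), where it is in capitals.
Cbfa2t3: aggcgggatagGAGGAAGTtgttgggaagt
Cbfb: gagggcggcgaGAGGAAGTggcggccgcag

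The windows of Myb and of the downstream starts of Runx1, Runx3 and Cbfa2t3 held neither motif. These matches are descriptions of the letters only, and binding was not measured.

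Library totals ran from 20028302 to 29128858 counts. Levels are given as CPM, the count of a gene scaled to the library total after TMM normalization over the 16 libraries. A gene was called when its fold change was above 1.5 and its p from the edgeR quasi-likelihood fit was under 0.05 after Benjamini-Hochberg adjustment over every gene tested. Spi1 checked the genotype labels: its level was 124 ± 40.0 CPM (SD, n = 4) in WT LSKs against 3.02 ± 1.42 CPM in URE LSKs, and 139.6 ± 40.6 CPM in WT GMPs against 21.3 ± 5.97 CPM in URE GMPs. The sort labels also held, since all 6 GMP markers of the list were called higher and 7 of 9 stem and LSK markers lower in GMPs than in LSKs of both genotypes. By their Xist and Y-linked counts the libraries of a replicate number had the same sex in both genotypes only in replicates 1 and 4, so those replicates were also fitted alone. The labels do not say whether the LSK and GMP libraries of a number and genotype came from the same mouse, and the comparisons between compartments and the interaction were fitted with them as independent, with the replicate block as an alternative.

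**Figure D1:**
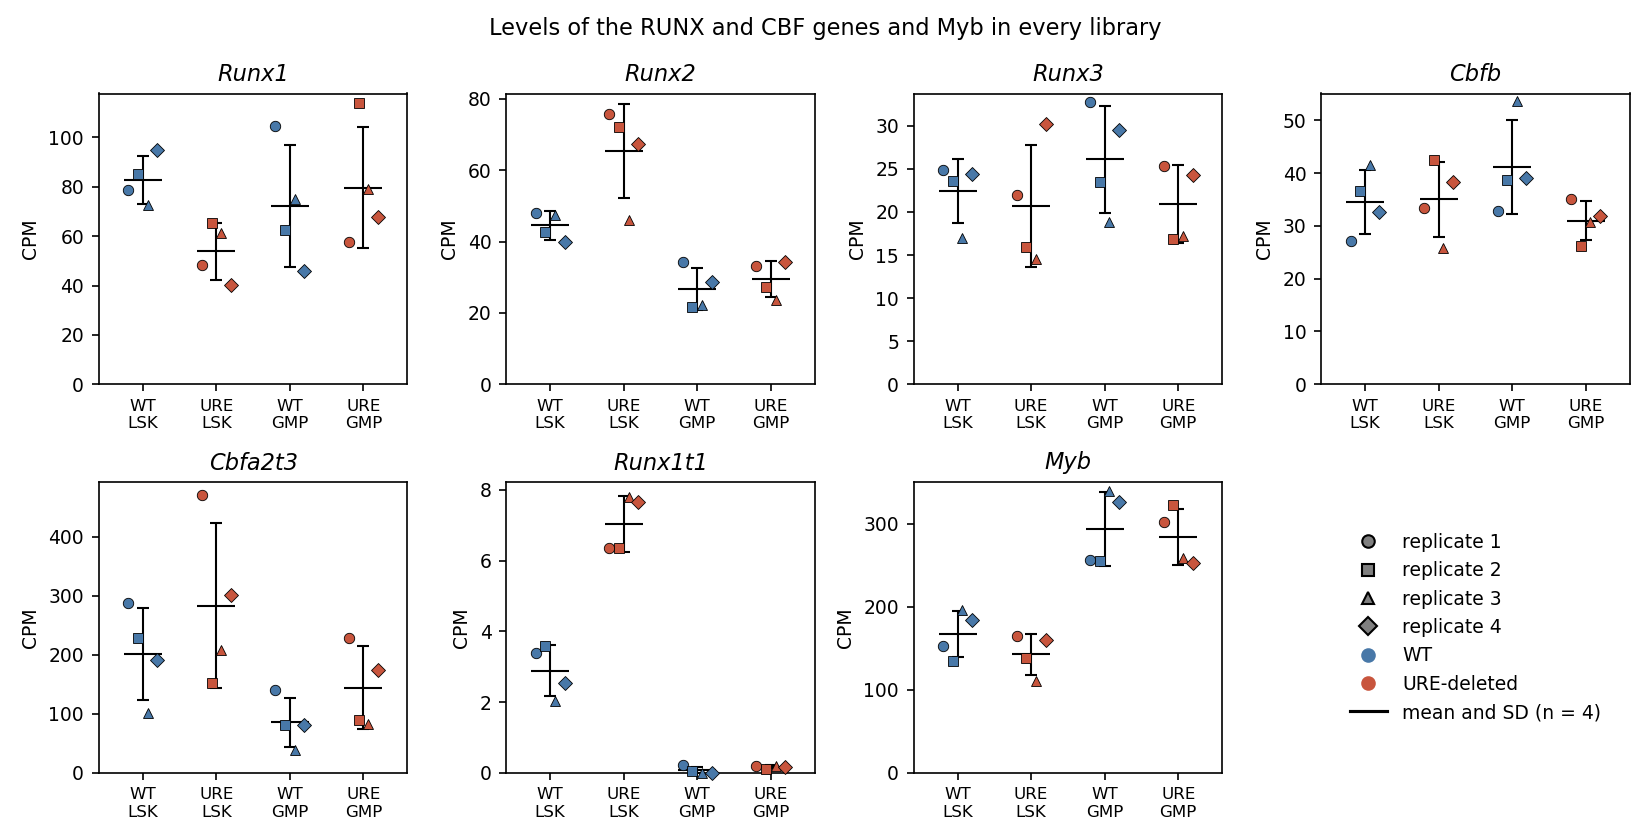
Level of each gene in CPM (linear vertical axis from 0) in the 16 libraries by group; symbols give the replicate number, colours the genotype, and bars the mean and SD of 4 libraries, stopped at 0 for Runx1t1 in WT GMPs. Runx1 in URE LSKs lies below all WT LSKs, Runx1t1 in URE LSKs lies above them, and Myb is higher in all GMP than in all LSK libraries.

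The first comparison asked how the loss of the Spi1 enhancer altered these genes in LSKs. Runx1t1 was the one gene called, and it was higher in URE LSKs. Runx1 was lower in 4 of 4 same-numbered pairs and Runx2 higher in 3 of 4, but neither was called. Runx3, Cbfb, Cbfa2t3 and Myb differed by less than the spread between mice. Thus 1 of 7 genes was called, against 6.14% of the 15154 genes tested, and 2 of 7 had groups that did not overlap, against 12.6% of all genes. The median log2 fold change of the 7 genes was -0.01, beside 0 over all genes.

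Runx1t1, the ETO corepressor, was scarce. It stood at 3.40, 3.59, 2.03 and 2.54 CPM in WT LSK replicates 1 to 4 and at 6.36, 6.36, 7.79 and 7.65 CPM in URE LSK replicates 1 to 4. All URE libraries were higher than all WT libraries, and the raw counts behind these levels were 52 to 107 in WT and 163 to 192 in URE. The increase was 2.39-fold (log2 1.25, SE 0.29, 95% interval 0.61 to 1.90, adjusted p = 0.031 in edgeR; higher in 4 of 4 same-numbered pairs), and the exact two-sided permutation test gave p = 0.0286, the smallest that 4 against 4 allows. The size was similar in replicates 1 and 4 alone (log2 1.21) and in replicates 2 and 3 alone (log2 1.31). Neither fit, each of 2 mice a group, called it (adjusted p = 0.112 and 0.451 in edgeR). The call was also lost without URE replicate 1 or 4 or any one of the WT replicates, where log2 fold changes ran from 1.15 to 1.39 and adjusted p-values from 0.0482 to 0.103 over all 8 omissions. It was lost as well without the filter on low counts (adjusted p = 0.0753), with all 16 libraries in one fit (0.141) and with Y-linked expression as a covariate (0.141), at log2 fold changes of 1.21 to 1.31 over the 11 alternatives. Markers of other blood cells were summed in the same libraries. Megakaryocyte markers (6 genes) summed to 747 CPM in URE LSK replicate 3 and to 58.9 to 154 CPM in the other 3 URE LSK libraries, against 66.7 to 87.5 CPM in WT LSKs. Without URE LSK replicate 3 the log2 fold change of Runx1t1 was 1.20 (adjusted p = 0.0482 in edgeR). Mast cell and basophil markers (6 genes) summed to 129.9 to 253 CPM against 69.3 to 155 CPM, although Prss34 and Ms4a2 had lower means in URE LSKs. For mature neutrophil markers (6 genes) the sums were 177 to 357 CPM against 35.1 to 177 CPM. Stem and LSK markers (9 genes) summed to 2759 to 3553 CPM against 3395 to 5743 CPM, and the part of these cells in the Runx1t1 difference was not tested.

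Runx1 in WT LSKs was at 78.5, 85.3, 72.5 and 94.9 CPM, and in URE LSKs at 48.2, 65.4, 61.3 and 40.4 CPM. Every URE library was below every WT library, with the widest gaps in replicates 1 and 4. The difference was 1.57-fold (log2 -0.65, SE 0.19, 95% interval -1.08 to -0.21, unadjusted p = 0.00779, adjusted p = 0.097 in edgeR; exact permutation p = 0.0286), so it exceeded the spread between mice as a single value but did not pass the correction over all genes. With a term for replicates 1 and 4 in the model it was called (log2 -0.67, adjusted p = 0.031), as in replicates 1 and 4 alone (log2 -0.999, adjusted p = 0.0285). It was not called under the other 9 of 11 alternatives, among them replicates 2 and 3 alone (log2 -0.34, adjusted p = 0.983), Y-linked expression as a covariate (log2 -0.75, adjusted p = 0.166) and the replicate block (log2 -0.67, adjusted p = 0.0543).

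Runx2 stood at 48.0, 42.5, 47.5 and 39.9 CPM in WT LSKs and at 75.7, 72.1, 46.1 and 67.3 CPM in URE LSKs. Of the URE libraries 3 were above all WT libraries, and URE replicate 3 lay within the WT range. The log2 difference was 0.52 (SE 0.20, 95% interval 0.08 to 0.96, adjusted p = 0.214 in edgeR, exact permutation p = 0.0857).

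Runx1 and Runx2, although neither was called, were also set against each other within each library. The ratio of Runx1 to Runx2 counts was 1.64, 2.01, 1.53 and 2.38 in WT LSK replicates 1 to 4 and 0.637, 0.907, 1.33 and 0.600 in URE LSK replicates 1 to 4. Each WT library held more Runx1 than Runx2 counts, whereas 3 of 4 URE libraries held fewer. Runx1, Runx2 and Runx3 summed to 149.8 ± 9.30 CPM in WT LSKs and 139.8 ± 13.5 CPM in URE LSKs (SD, n = 4), with overlapping ranges of 137 to 159 CPM and 122 to 154 CPM. On a scale of CPM per kilobase of exon, Runx1, Runx2 and Runx3 made up 41.9 ± 3.0%, 30.9 ± 4.4% and 27.2 ± 2.92% of the RUNX level in WT LSKs. The shares in URE LSKs were 28.6 ± 8.49%, 45.8 ± 4.86% and 25.6 ± 7.16%. Runx2 thus held the largest mean share in URE LSKs and Runx1 in the other 3 groups. These ratios were formed after the separate levels were known and carry no test.

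**Figure D2:**
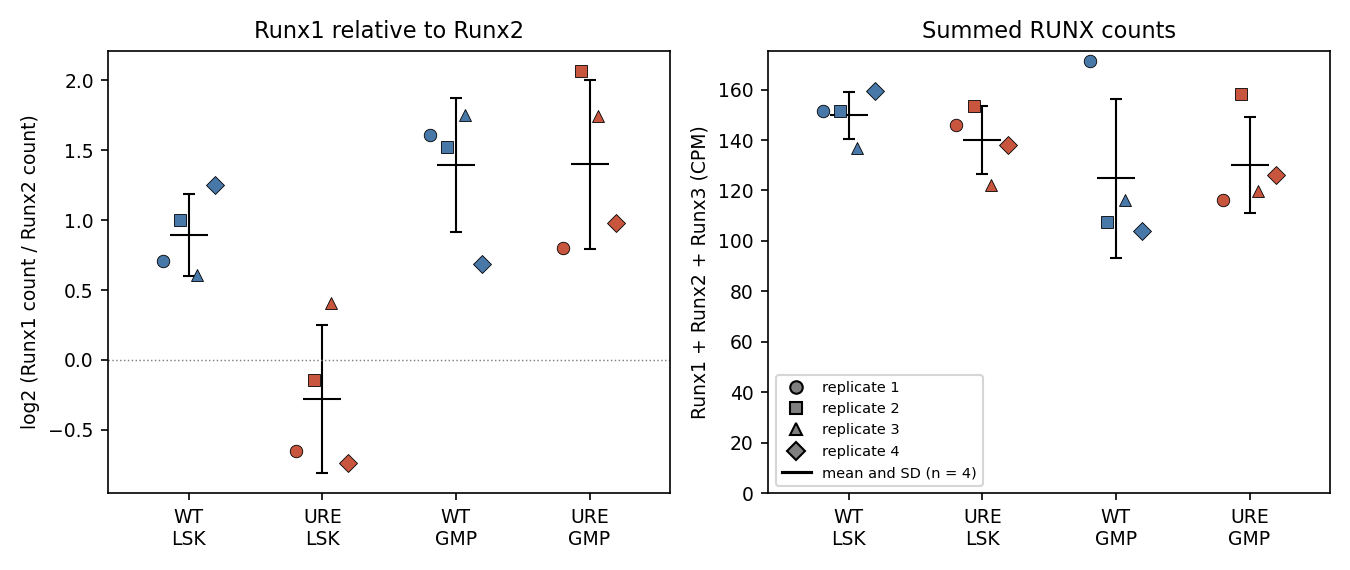
Left, log2 ratio of Runx1 to Runx2 counts per library (the dotted line marks equal counts); right, summed CPM of Runx1, Runx2 and Runx3. Symbols give the replicate number, blue is WT and red URE, and bars give the mean and SD of 4 libraries: the ratio of URE LSKs (0.600 to 1.33) does not overlap that of WT LSKs (1.53 to 2.38), while the sums overlap.

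Cbfb, the common subunit, stood at 34.4 ± 6.04 CPM in WT LSKs and 35.0 ± 7.12 CPM in URE LSKs (SD, n = 4), and its log2 difference was -0.01 (95% interval -0.50 to 0.48, adjusted p = 0.994 in edgeR). Relative to the summed RUNX level, Cbfb was 0.179 to 0.302 in WT LSKs and 0.212 to 0.278 in URE LSKs, again overlapping. Runx3 was at 22.5 ± 3.72 CPM and 20.7 ± 7.12 CPM (log2 -0.15, 95% interval -0.75 to 0.45, adjusted p = 0.928). Myb was at 153, 135, 196 and 184 CPM in WT LSKs and 164, 138, 110.3 and 159 CPM in URE LSKs. The Myb ranges overlapped (log2 -0.26, 95% interval -0.68 to 0.16, adjusted p = 0.66).

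Cbfa2t3, the ETO2 corepressor, was the most variable of the 6 well-expressed genes. It stood at 287.5, 229, 101 and 190.4 CPM in WT LSKs and at 471, 152, 207 and 301.5 CPM in URE LSKs. Both groups spread over more than their difference (log2 0.46, SE 0.38, adjusted p = 0.733 in edgeR). The interval of -0.40 to 1.32 includes no difference and a doubling.

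The second comparison put the same question to GMPs. None of the 6 genes tested was called in edgeR, none had an unadjusted p under 0.05, and none had groups that did not overlap. Over all genes 8.3% of 13829 were called, 20.3% had an unadjusted p under 0.05 and 14.8% did not overlap. DESeq2 also called none of the 6. The median log2 fold change was 0.03 for the genes and 0.01 over all genes.

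Runx1 in GMPs was at 104.5, 62.4, 75.2 and 46.0 CPM in WT and at 57.8, 114, 79.2 and 67.6 CPM in URE. The ranges covered each other and the log2 difference was 0.13 (95% interval -0.53 to 0.78, adjusted p = 0.876 in edgeR). Its direction turned in replicates 1 and 4 alone (log2 -0.28). Runx2 was at 34.2, 21.7, 22.3 and 28.5 CPM in WT GMPs and at 33.1, 27.2, 23.6 and 34.3 CPM in URE GMPs. Its log2 difference of 0.14 had a 95% interval of -0.35 to 0.63 (adjusted p = 0.811).

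Cbfa2t3 was at 139.8, 81.0, 39.1 and 80.9 CPM in WT GMPs and at 228, 88.7, 83.3 and 175 CPM in URE GMPs. Each URE library was higher than the WT library of its number, although the groups overlapped. The log2 difference was 0.75 (SE 0.43, 95% interval -0.22 to 1.72, adjusted p = 0.389 in edgeR; higher in 4 of 4 pairs). With the replicate number as a block it was called (log2 0.75, adjusted p = 0.0283 in edgeR). Cbfb was 41.1 ± 8.87 CPM in WT and 31.0 ± 3.70 CPM in URE GMPs (SD, n = 4; log2 -0.42, 95% interval -0.89 to 0.06, adjusted p = 0.312). Runx3 was lower in URE in 4 of 4 pairs (log2 -0.33, 95% interval -0.87 to 0.22, adjusted p = 0.531), and Myb differed least (294 ± 44.7 CPM in WT and 284 ± 33.6 CPM in URE; log2 -0.06, 95% interval -0.42 to 0.30, adjusted p = 0.889).

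Runx1t1 was nearly undetected in GMPs and fell below the filter on low counts. WT GMP libraries held 5, 1, 0 and 0 counts and URE GMP libraries 4, 2, 4 and 3 counts. Both groups were at the limit of detection, and the ratio of URE to WT was 2.44 with a 95% interval for counting error alone of 0.865 to 7.83 (13 against 6 counts, scaled to library size).

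**Figure D3:**
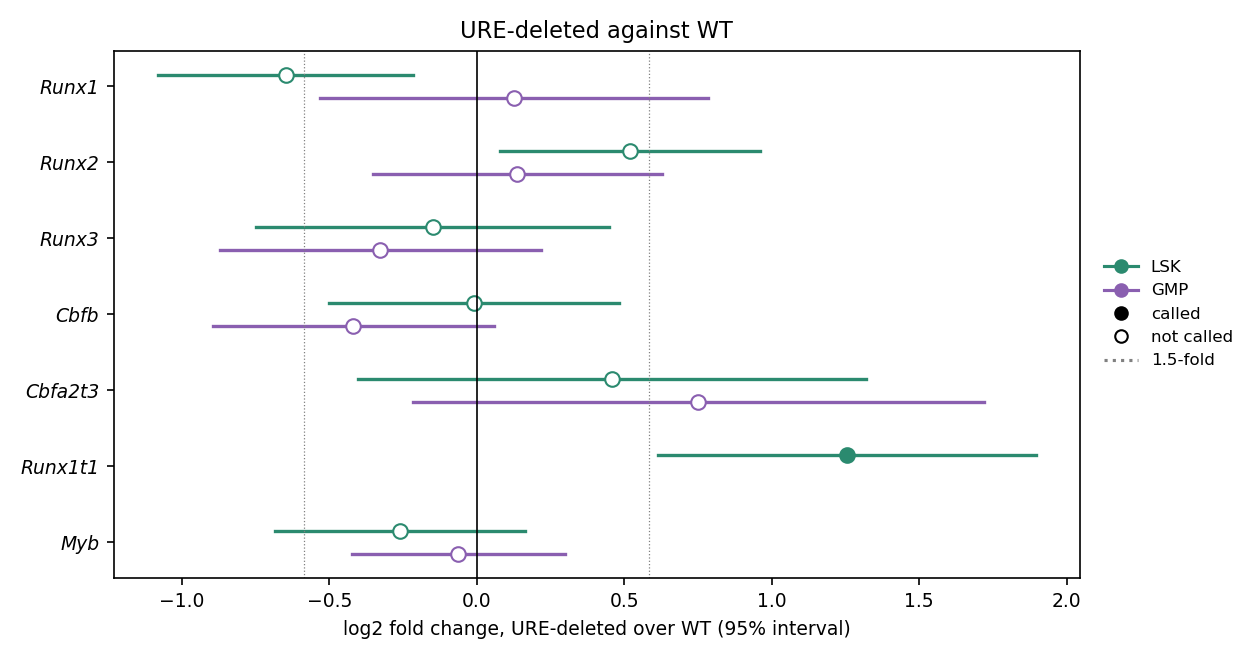
log2 fold change of URE over WT with 95% intervals from edgeR for the 7 genes in LSKs (green) and GMPs (purple); filled points were called, open points were not, and dotted lines mark 1.5-fold. The single filled point is Runx1t1 in LSKs at 1.25, and Runx1t1 has no point in GMPs because it was not tested there.

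Whether the genotype acted differently in the 2 compartments was tested as an interaction over all 16 libraries. None of the 7 genes was called in edgeR or DESeq2, and 1 had an unadjusted p under 0.05, while 1.22% of 15935 genes were called and 11.6% had such a p. That gene was Runx1, with an interaction of 0.77 on the log2 scale (effect in GMPs minus effect in LSKs; 95% interval 5e-04 to 1.53, unadjusted p = 0.0499, adjusted p = 0.429 in edgeR). The interaction of Runx2 was -0.41 (adjusted p = 0.681) and that of Cbfa2t3 0.27 (adjusted p = 0.97). For Runx1t1 the interval ran from -2.30 to 2.24, so the few GMP counts allowed no statement. A difference between compartments in the response of these genes was therefore not shown.

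The third comparison described the normal step from LSKs to GMPs in WT mice. Myb rose, whereas Runx2, Cbfa2t3 and Runx1t1 fell, and Runx1, Runx3 and Cbfb were not called. Runx1t1 passed the filter on low counts through LSKs only, here and in URE mice, and was called without that filter too. That made 4 of 7 genes called (57.1%), beside 27.3% of the 14767 genes tested, and 3 of 7 with groups that did not overlap, beside 31.4%. Their median log2 change was -0.21, that of all genes -0.09.

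Myb in WT GMPs was at 256, 255, 339 and 326 CPM, against 153, 135, 196 and 184 CPM in WT LSKs. All GMP libraries exceeded all LSK libraries. The rise was 1.75-fold (log2 0.80, SE 0.18, 95% interval 0.41 to 1.20, adjusted p = 0.00893 in edgeR; exact permutation p = 0.0286; higher in 4 of 4 pairs). Runx2 fell 1.68-fold between the compartments (log2 -0.75, SE 0.20, adjusted p = 0.0197; exact permutation p = 0.0286). Its highest GMP library, replicate 1 at 34.2 CPM, was below its lowest LSK library at 39.9 CPM. The Runx2 call was lost without WT LSK replicate 1 or without WT GMP replicate 2 or 3 (adjusted p of 0.013 to 0.0698 over the 8 omissions).

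Cbfa2t3 fell 2.39-fold in WT GMPs (log2 -1.26, SE 0.41, adjusted p = 0.0456 in edgeR; lower in 4 of 4 pairs). The groups overlapped because WT LSK replicate 3, at 101 CPM, was below WT GMP replicate 1, at 139.8 CPM, and the exact permutation test gave p = 0.0571. The call was lost when any library other than WT GMP replicate 1 or WT LSK replicate 3 was left out (log2 -1.56 to -0.98 over all 8 omissions, adjusted p = 0.0176 to 0.118). Within pairs the fall was even, with log2 differences from -1.49 to -1.04. Runx1t1 fell from 2.89 ± 0.733 CPM to between 0 and 0.217 CPM. Its summed counts were 328 in LSKs and 6 in GMPs, a ratio of 42.6 after scaling to library size with a counting interval of 19.4 to 117 (adjusted p = 0.00121). Of the 6 GMP counts 5 were in replicate 1. The fitted log2 change was -7.11 without WT GMP replicate 1 and -5.45 to -4.92 when any of the other 7 libraries was left out, and the call held in all 8 omissions.

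Runx1 itself was 82.8 ± 9.60 CPM in WT LSKs and 72.0 ± 24.7 CPM in WT GMPs (SD, n = 4; log2 -0.21, 95% interval -0.76 to 0.34, adjusted p = 0.575). The GMP libraries varied more than the LSK libraries, from 46.0 to 104.5 CPM. Runx3 (log2 0.21, adjusted p = 0.551) and Cbfb (log2 0.24, adjusted p = 0.443) had point estimates above 0, Cbfb in 4 of 4 pairs.

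The fourth comparison was the same step in URE mice. Myb rose and Runx2 and Runx1t1 fell, so 3 of 7 genes (42.9%) were called, beside 21.8% of the 14395 genes tested, and the same 3 did not overlap, beside 26.6%. The median log2 change was -0.21, that of all genes -0.09. The comparisons in WT and URE shared no library.

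Myb went from 164, 138, 110.3 and 159 CPM in URE LSKs to 302, 322, 259 and 253 CPM in URE GMPs. Here too every GMP library was above every LSK library (1.93-fold, log2 0.95, SE 0.17, adjusted p = 0.0044 in edgeR; exact permutation p = 0.0286; higher in 4 of 4 pairs). Runx2 fell 2.27-fold (log2 -1.19, SE 0.21, adjusted p = 0.00403; lower in 4 of 4 pairs). It stood at 29.6 ± 5.05 CPM in URE GMPs and at 26.7 ± 5.86 CPM in WT GMPs. Runx1t1 fell from 723 summed counts to 13, a ratio of 41.5 with a counting interval of 24.1 to 78.3 (adjusted p = 5.94e-05).

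Cbfa2t3 was lower in URE GMPs in 4 of 4 pairs (log2 -1.02, SE 0.43, 95% interval -1.98 to -0.07) without passing the test (adjusted p = 0.12 in edgeR), and was called with the replicate block (log2 -1.02, adjusted p = 0.000755). Runx1 was higher in URE GMPs than in URE LSKs in 4 of 4 pairs (log2 0.52, 95% interval -0.02 to 1.07, adjusted p = 0.163). With the replicate block its adjusted p was 0.0247, yet its fold change stayed under 1.5. Runx3 (log2 -0.03, adjusted p = 0.957; the sign turned under 6 of 11 alternatives) and Cbfb (log2 -0.21, adjusted p = 0.491) were not called.

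**Figure D4:**
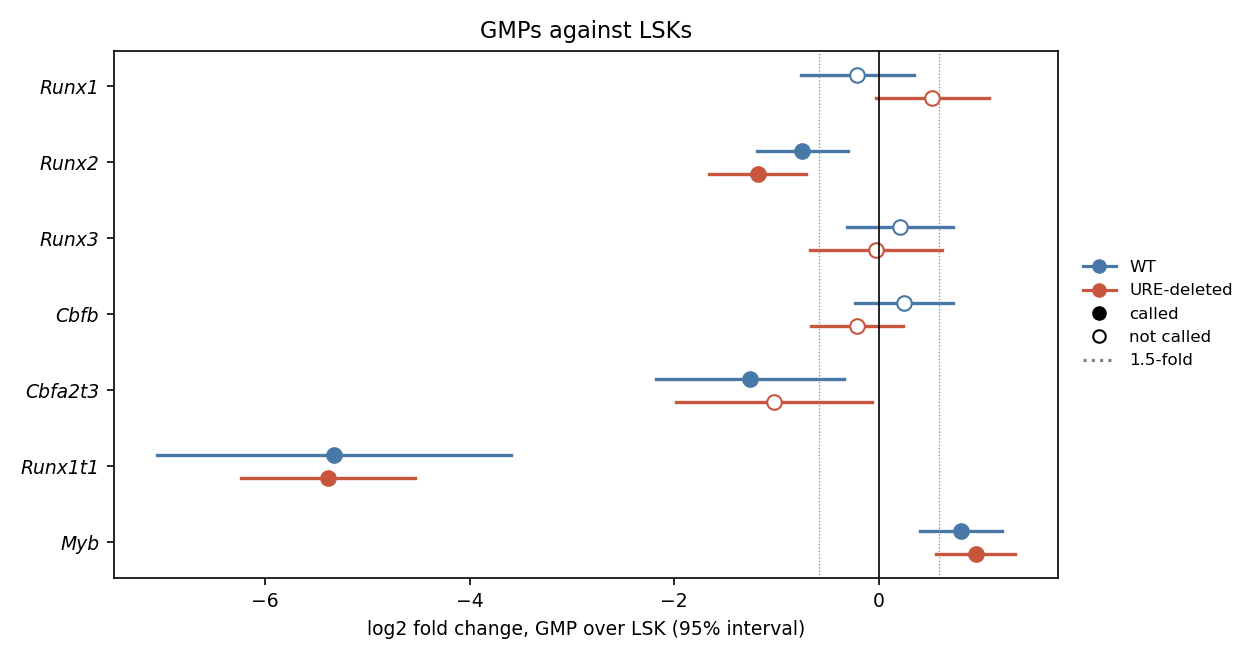
log2 fold change of GMPs over LSKs with 95% intervals from edgeR in WT (blue) and URE (red) mice; filled points were called and dotted lines mark 1.5-fold. Runx2 and Runx1t1 lie below 0 and Myb above it in both genotypes, and Cbfa2t3 is filled in WT only, which is no test of a difference between genotypes.

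Ordered by level, the groups ran differently for each gene. Myb was lowest in URE LSKs (143 ± 24.6 CPM) and WT LSKs (167 ± 28.1 CPM), which did not differ beyond their spread, and highest in the 2 GMP groups, which did not differ either. For Runx2 the order was WT GMP, URE GMP, WT LSK (44.5 ± 3.95 CPM) and URE LSK (65.3 ± 13.3 CPM), with no called difference between the first 2 or between the last 2. For Runx1 URE LSKs were lowest (53.8 ± 11.6 CPM), followed by WT GMPs, URE GMPs (79.7 ± 24.6 CPM) and WT LSKs, and the ranges of all neighbours in that order overlapped. For Cbfa2t3 the order was WT GMP (85.2 ± 41.4 CPM), URE GMP (144 ± 70.2 CPM), WT LSK (202 ± 78.0 CPM) and URE LSK (283 ± 139.7 CPM), again with overlap between all neighbours.

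Levels of different genes can be compared only per length. Per kilobase of all annotated exons, Cbfa2t3 led in LSKs, at 24.1 ± 9.32 CPM per kilobase in WT and 33.8 ± 16.7 in URE, and Myb led in GMPs, at 32.9 ± 5.003 in WT and 31.8 ± 3.77 in URE. Cbfb stood at 8.90 to 11.8 CPM per kilobase (group means) and the 3 RUNX genes at 3.02 to 7.39. Runx1t1 was last in every group, at 0.885 ± 0.0991 in URE LSKs and 0.363 ± 0.0921 in WT LSKs. Dividing by the longest transcript in place of all exons put Myb first in LSKs too (45.3 in WT and 38.7 in URE) and Runx1 above Cbfb in WT LSKs and URE GMPs, so these orders depend on the length used.

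The libraries of a replicate number resembled each other beyond genotype and compartment, and some of the genes carried that pattern. Runx3 was higher in replicates 1 and 4 than in replicates 2 and 3 in all 4 groups, for instance 22.0 and 30.2 CPM against 15.98 and 14.5 CPM in URE LSKs. Cbfa2t3 did the same in URE LSKs and URE GMPs, where replicates 1 and 4 held 175 to 471 CPM and replicates 2 and 3 held 83.3 to 207 CPM. Runx1 ran the other way in the URE groups, with 40.4 to 67.6 CPM in replicates 1 and 4 and 61.3 to 114 CPM in replicates 2 and 3. These sets were compared after the values were seen and carry no test.

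**Figure D5:**
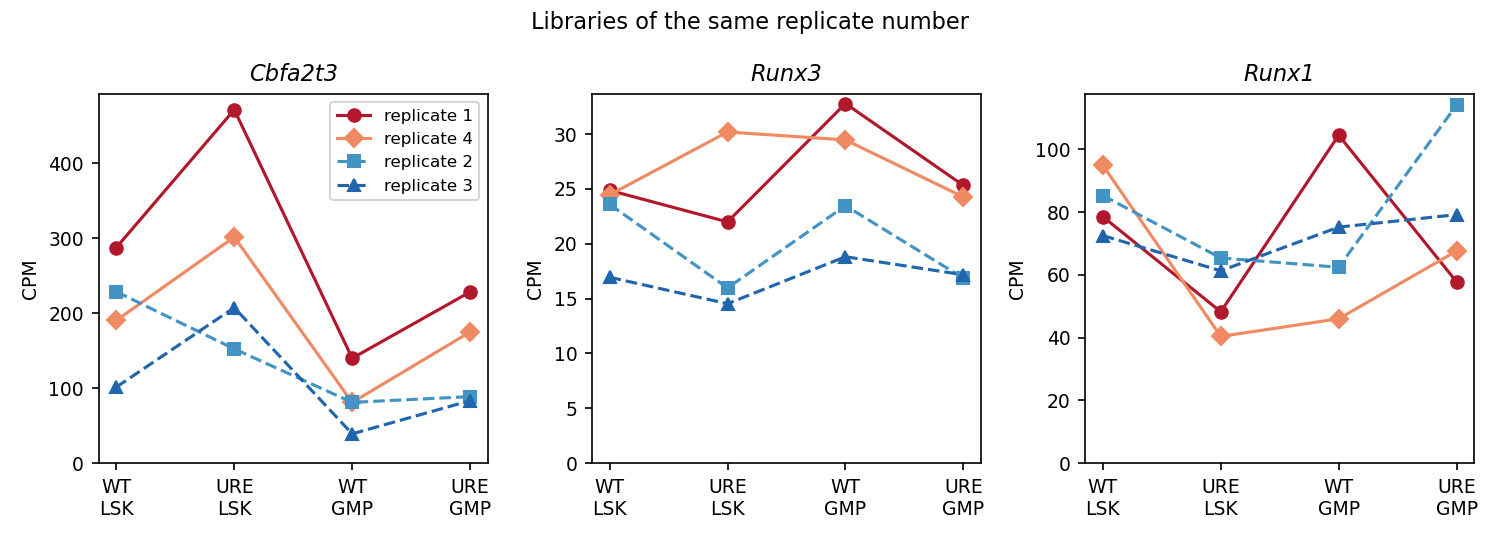
CPM of Cbfa2t3, Runx3 and Runx1 in the 4 groups; each line joins the libraries of a replicate number, which are different mice in WT and URE, with replicates 1 and 4 in warm colours and solid lines and replicates 2 and 3 in blue and dashed lines. Runx3 is higher in replicates 1 and 4 in all 4 groups, and Runx1 is lower there in both URE groups.

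Across the 16 libraries, Runx1t1 and Runx2 ran together (Pearson r = 0.901 on log2 CPM) and Runx1t1 ran opposite to Myb (r = -0.944), which follows the division into LSKs and GMPs that all points share. The genes most alike to each member were listed among 9076 genes with a mean of at least 3 on the log2 CPM scale. For Runx2 these were Jmy (r = 0.951), Lpp (0.919) and Prkag2 (0.912). For Runx1t1 they were Pglyrp2 (0.979), Prkag2 (0.977) and Prnp (0.975), and for Myb Fmr1 (0.952), Ube2m (0.951) and Mettl6 (0.931). Within groups, once group means were removed, the first of these stayed at 0.81 for Jmy and 0.759 for Fmr1 but dropped to 0.427 for Pglyrp2. Cbfa2t3 was most like Ric8a (0.97), Prkd2 (0.952) and Csrnp1 (0.951), and Runx3 was most like Med1 (0.911), Khsrp (0.906) and Ap1m1 (0.899). Within groups r was 0.936 for Ric8a and 0.942 for Med1. Cbfb was most like Tmpo (0.857), Cbx1 (0.831) and Btbd1 (0.825), and Runx1 had the weakest likenesses, to Ccdc186 (0.793), Wsb1 (0.74) and Rgs2 (0.736).

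Partners of these proteins were read against the 6.14% of genes called in LSKs and the 8.3% called in GMPs. The lists here and below were chosen with earlier results of these data known, so no share tests a list as a set. Of 17 RUNX corepressors, coactivators and modifying enzymes, such as the histone deacetylase Hdac3 and the acetyltransferase Ep300, none was called in LSKs by edgeR or DESeq2, and 1 had an unadjusted p under 0.05, beside 15.3% of all genes (median log2 0.16). In GMPs 1 was called, the arginine methyltransferase Prmt1, at 485 ± 43.0 CPM in WT and 315 ± 39.5 CPM in URE (log2 -0.63, SE 0.15, adjusted p = 0.0333). Of 10 genes of the ETO family and SCL complex, none was called between genotypes in either compartment by edgeR or DESeq2, and 1 in LSKs and 0 in GMPs had an unadjusted p under 0.05, beside 15.3% and 20.3% of all genes (median log2 -0.08 and -0.07).

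Between LSKs and GMPs, 27.3% of genes were called in WT and 21.8% in URE mice. In WT mice the kinase gene Cdk6 rose from 574 ± 96.9 to 1646 ± 441 CPM (log2 1.51, adjusted p = 0.00134 in edgeR) and Prmt1 rose (log2 0.69, adjusted p = 0.00323), while the histone methyltransferase gene Kmt2a (log2 -0.96) and the corepressor gene Tle4 (log2 -0.63) fell, 4 of 17 in all. In URE mice Cdk6 rose (log2 1.11) and Tle4 (log2 -0.77) and the acetyltransferase gene Crebbp (log2 -1.07) fell, 3 of 17. Among the 10 genes of the ETO and SCL list, the erythroid factor Gata1 rose (log2 2.52 in WT and 2.97 in URE) and Lmo2 (log2 -1.87 and -1.57) and Tcf4 (log2 -0.92 and -1.07) fell in both genotypes. Tal1 (log2 -1.18) and Tcf12 (log2 -0.99) were called lower in GMPs than in LSKs of URE mice. In WT mice their log2 changes of -0.67 and -0.34 were not called. The interaction was called for neither (adjusted p = 0.767 for Tal1 and 0.497 for Tcf12 in edgeR), so a difference between genotypes was not shown. Gata1 also stands for erythroid cells, whose 7 markers summed to 43.0 to 126 CPM in WT LSKs and 143 to 429 CPM in WT GMPs, and to 18.8 to 101 CPM in URE LSKs and 54.0 to 471 CPM in URE GMPs. The lineage stain, for which both sorts took negative cells, included the erythroid marker Ter119. Mast cell and basophil markers (6 genes) summed to 69.3 to 155 CPM in WT LSKs and 713.5 to 1267 CPM in WT GMPs. In URE mice those sums were 129.9 to 253 CPM and 863 to 2378 CPM. Of these 6 markers 5 were called higher in GMPs in WT and 3 in URE, and 0 lower. The part of erythroid, mast and basophil cells that passed the sort in the Gata1 change was not tested.

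Of 21 genes known as direct RUNX targets in blood cells, 19 were tested in LSKs, where 5 were called higher and 4 lower in URE mice, 9 of 19 beside 6.14% of the 15154 genes tested. Without Spi1, whose enhancer the genotype deletes, 8 of 18 were called. Both counts include Rag1, whose passage through the filter is given below. The list was chosen with earlier results of these data known, so these shares are no test of RUNX targets as a set. The higher ones included Gzmb, the gene of granzyme B (0.561 ± 0.572 CPM in WT and 32.4 ± 7.63 CPM in URE; log2 5.85, adjusted p = 0.00116 in edgeR) and perforin, Prf1 (log2 2.03, adjusted p = 0.0203). They also included the platelet integrin Itga2b (log2 1.88, adjusted p = 0.026), Gfi1b (log2 1.31, adjusted p = 0.0221) and Elane (log2 1.15, adjusted p = 0.0416). The lower ones were Spi1 itself, the M-CSF receptor Csf1r (log2 -2.22, adjusted p = 0.0184), Cd4 (log2 -3.04, adjusted p = 0.00677) and Rag1 (at most 0.156 CPM in URE LSKs against 0.443 to 5.47 CPM in WT, adjusted p = 0.0238), which passed the filter on low counts through WT LSKs only. Their median log2 change was 0.39, beside 0 over all genes, and several of them are targets of PU.1 too. The sum of 10 T, NK and innate lymphoid markers, 238 to 377 CPM in URE LSKs and 142 to 326 CPM in WT LSKs, was mostly Nkg7 (273 ± 60.3 and 176 ± 80.9 CPM). Il7r stood at 0.810 ± 1.23 and 12.1 ± 7.16 CPM, Cd3e, Cd3d and Cd8a were at 0 counts in URE LSKs and at no more than 5 counts in any WT LSK library, Cd3g was at no more than 14 and 6 counts in any URE and WT LSK library, and monocyte markers (6 genes) summed to 13.6 to 25.4 CPM against 60.7 to 111 CPM. Megakaryocyte markers summed to 58.9 to 747 CPM in URE LSKs, highest in replicate 3, against 66.7 to 87.5 CPM in WT LSKs. Mast cell and basophil markers summed to 129.9 to 253 CPM in URE LSKs against 69.3 to 155 CPM in WT LSKs. That sum was mostly Cpa3 (mean 89.1 CPM in URE and 23.4 CPM in WT) and Gata2 (73.5 and 75.0 CPM). Prss34 (3.08 and 5.85 CPM) and Ms4a2 (0.264 and 1.80 CPM) had lower means in URE. Of 5 tested 2 were called higher and 0 lower. For mature neutrophil markers the sums were 177 to 357 CPM against 35.1 to 177 CPM. The part of such cells in the target differences was not tested.

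In GMPs 4 of 17 tested targets were called between genotypes, beside 8.3% of all genes, and 3 of 16 without Spi1. Gzmb (log2 3.96, adjusted p = 0.0121 in edgeR) and Prf1 (log2 2.497, adjusted p = 0.0146) were higher, and Spi1 and Csf1r (log2 -3.44, adjusted p = 0.0101) were lower. All 6 monocyte and macrophage markers, Csf1r among them, were called lower in URE GMPs, with sums of 49.6 to 245.5 CPM against 544 to 880 CPM in WT GMPs, and the T, NK and innate lymphoid sum was 1365 to 2234 CPM against 566.5 to 981 CPM, mostly Nkg7. Of 6 mature neutrophil markers 2 were called higher in URE GMPs (Retnlg, 1 of them, passed the filter on low counts through URE GMPs only), and their sum was 217.5 to 994 CPM against 44.9 to 144 CPM. The part of such cells in these differences was not tested. Between LSKs and GMPs, the granule genes Mpo (log2 5.67 in WT and 6.78 in URE) and Elane (log2 6.78 and 6.60) and the myeloid factor Cebpa (log2 2.21 and 3.88) rose in both genotypes, while Prkcq (log2 -2.32 and -1.57) fell. In all, 7 of 19 rose and 4 fell in WT (Rag1, 1 of the 4, passed the filter on low counts through LSKs only), beside 27.3% of all genes called, and 5 of 17 rose and 2 fell in URE, beside 21.8%.

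Of the 7 bone genes known as RUNX2 targets, 3 were tested between genotypes in LSKs and 2 in GMPs. Osteopontin, Spp1, which blood cells also express, was at 4.96 ± 2.14 CPM in WT LSKs and 21.9 ± 7.88 CPM in URE LSKs (log2 2.12, adjusted p = 0.0102 in edgeR) and at 3.36 ± 0.891 and 19.8 ± 2.40 CPM in WT and URE GMPs (log2 2.54, adjusted p = 0.000803). It was the one gene called of the 3 tested in LSKs, beside 6.14% of all genes there and 8.3% in GMPs. The collagenase Mmp13, the other gene tested in GMPs, passed the filter on low counts through URE GMPs only, at 0.128 ± 0.125 CPM in WT (at most 5 counts in a library) and 2.49 ± 1.14 CPM in URE GMPs. Among the bone and stroma markers, Col1a1, Sp7, Bglap and Cdh5 were each under 1 CPM in every library, and the mean of Cxcl12 was 1.44 to 3.79 CPM over the groups. Pecam1, which blood cells also express, made up most of that list's sum, at 141 ± 13.9 CPM in WT LSKs, 95.2 ± 15.9 CPM in URE LSKs, 155 ± 21.3 CPM in WT GMPs and 308 ± 71.7 CPM in URE GMPs (SD, n = 4). Col1a2, a collagen gene of fibroblasts and bone-forming cells, was at 1.58 ± 1.70 CPM in WT LSKs and 13.7 ± 9.74 CPM in URE LSKs (log2 3.10, adjusted p = 0.0576 in edgeR) and at 0.602 ± 0.477 CPM in WT GMPs and 11.7 ± 6.92 CPM in URE GMPs (log2 4.29, adjusted p = 0.00579). Col1a2 and Pecam1 were the 2 markers of that list called in GMPs, both higher in URE, and their part in the Spp1 and Mmp13 differences was not tested.

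Of 12 Myb relatives and known targets, 11 were tested between LSKs and GMPs in WT, where Myb rose. There 6 rose and 1 fell, beside 27.3% of all genes called, and among those that rose were Mybl2 (log2 1.32, adjusted p = 0.0394 in edgeR), the cyclin genes Ccnb1 (log2 1.15, adjusted p = 0.000883) and Ccne1 (log2 1.14, adjusted p = 0.0277) and the survival gene Bcl2 (log2 0.99, adjusted p = 0.0311), besides Mpo and Elane. Gata3 fell (log2 -3.11, adjusted p = 0.000445). In URE mice 2 of 12 rose, Mpo and Elane, and Gata3 (log2 -1.67) and Cd34 (log2 -0.94) fell, beside 21.8% of all genes called. Between genotypes edgeR called 3 of 11 in LSKs, Gata3 and Elane higher and Cd34 lower in URE, beside 6.14% of all genes. In GMPs it called 2 of 12, Gata3 higher and Cd34 lower, beside 8.3%. Gata3 was at 48.7 ± 5.54 CPM in WT and 110.3 ± 9.13 CPM in URE LSKs and at 5.69 ± 3.17 CPM in WT and 35.5 ± 11.8 CPM in URE GMPs. Myb was not called in either compartment. Cd34, a surface marker of progenitors, was lower in both (log2 -1.31 in LSKs and -1.80 in GMPs). In the interaction test no gene of the 5 lists was called by edgeR apart from Spi1. An unadjusted p under 0.05 was found for 2 of 17 cofactors, 1 of 10 ETO and SCL genes, 9 of 19 blood targets (8 of 18 without Spi1), 0 of 4 bone genes and 3 of 12 Myb targets, beside 11.6% of all genes. DESeq2 also called Prmt1, Bcl2 and Gata3.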

How the data were processed

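The authors sequenced low-input paired-end libraries made from up to 10 ng of RNA and deposited one table of estimated counts per gene. Per the labels and the study's methods these are whole-number expected counts from Salmon, summed per gene with tximport, on GRCm38; the library kit does not mark strand, and molecules carried no identifiers. The counts were scaled by TMM and tested with edgeR 4.0.16 (quasi-likelihood, filterByExpr, R 4.3.3) within the 8 libraries of each comparison, and over all 16 for the interaction. Calls needed a Benjamini-Hochberg adjusted p under 0.05 over all genes and a fold change above 1.5 (no minimum fold for the interaction). Single genes were also tested by exact two-sided permutation of log2 CPM (prior count 2). Annotation was GENCODE M21 (54094 of 54347 identifiers). Alternatives were DESeq2 1.42.0, other scalings and filters, a replicate block and omitted libraries. The scripts were tested on simulated data.

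Same-numbered libraries deviated together, with r of 0.282 to 0.586 between genotypes in LSKs and 0.237 to 0.547 in GMPs. Between compartments r was 0.418 to 0.711 in WT and 0.377 to 0.525 in URE. Yet replicate 4 of URE LSKs was more like replicate 1 of WT LSKs (r = 0.398) than replicate 4 (r = 0.282). In GMPs these values were 0.385 and 0.237. Replicate numbers come from the labels, and whether they pair single samples was not shown. The 7 genes and the lists were chosen with earlier results of these data known. The genes to be named were all members, the genes of the lists (1 of which is counted but not reported here by name), Spi1, and for each member the 3 genes with the highest r over the 16 libraries.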

Additional observations from a re-analysis of the deposited data

Results flagged for a closer look

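Among 32 groups of 4 libraries checked for a library that stands apart, 1 was found, where chance gives about 1.6. It was Runx3 in WT LSK replicate 3, at 16.9 CPM beside 23.6 to 24.9 CPM in the other WT LSKs.

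Spi1, which is not one of the 7 genes, differed in its response between compartments: its loss in URE mice was smaller in GMPs than in LSKs by 2.64 on the log2 scale (edgeR interaction, adjusted p = 0.0218). No such difference was called for the RUNX, CBF and Myb genes.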

How the results depend on the processing

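Of the genes compared between URE and WT LSKs, 1 was called (Runx1t1). The number was 0 without the filter on low counts, with all 16 libraries in one fit, in replicates 2 and 3 alone and with Y-linked expression as a covariate, 2 with a term for replicates 1 and 4 (Runx1t1 and Runx1), and 0 to 1 when each library was left out. In replicates 1 and 4 alone it was also 1, but the gene was Runx1. In GMPs the number went from 0 to 1 with the replicate block (Cbfa2t3) and stayed 0 to 0 on leaving out libraries. Between WT LSKs and GMPs 4 were called, 3 without the filter on low counts (Runx2 lost, adjusted p = 0.0507 in edgeR), 3 with the Y-linked covariate (Cbfa2t3 lost, adjusted p = 0.0642), 2 at a fold change above 2, 2 in replicates 1 and 4 alone, 1 in replicates 2 and 3 alone and 2 to 4 on leaving out libraries; in URE mice 3 were called, 2 at a fold change above 2 (Myb lost), 4 with the replicate block, with the term and in replicates 1 and 4 alone (Cbfa2t3 gained), 1 in replicates 2 and 3 alone and 3 to 3 on leaving out libraries. The interaction gave 0 throughout. Besides Cbfa2t3 between genotypes in GMPs and between compartments in URE mice, the replicate block changed no call of a member. The causes of these changes were not tested.

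Values near 0 changed sign. For Cbfb in LSKs the log2 difference was 0.0198 with RLE size factors, 0.0035 without the filter, 0.0247 in DESeq2, 0.0232 in one fit of 16 libraries, 0.23 in replicates 1 and 4, 0.0038 with their term and 0.0152 with the Y-linked covariate. Runx3 became 0.0535 in LSKs and Runx1 -0.28 in GMPs in replicates 1 and 4. Runx3 between URE LSKs and GMPs became 0.0364 with RLE, 0.048 in DESeq2, 0.0094 with the replicate block, 0.0163 in one fit, 0.17 in replicates 2 and 3 and 1e-04 with the term. Interactions became -0.0073 for Myb in replicates 1 and 4, 0.11 for Runx3 and 1.24 for Runx1t1 in replicates 2 and 3, and 0.13 for Runx1t1 with the nested block. On leaving out libraries the ranges that crossed 0 were -0.11 to 0.12 for Cbfb in LSKs, -0.10 to 0.36 for Runx1 and -0.14 to 0.0182 for Myb in GMPs, -0.13 to 0.26 for Runx3 between URE LSKs and GMPs, and, for the interaction, -0.34 to 0.0389 for Runx3, -0.0711 to 0.63 for Cbfa2t3 and -0.41 to 1.76 for Runx1t1.

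Over all genes the 930 calls in LSKs became 1631 in DESeq2, 1433 with the replicate block, 386 in replicates 2 and 3 and 510 with the Y-linked covariate, and the 1148 calls in GMPs became 1995, 2260, 108 and 630. With a term for replicates 1 and 4 they were 1425 and 1880. The 4037 calls between compartments in WT became 2507 and the 3133 in URE 810 in replicates 2 and 3. In replicates 1 and 4 alone, a subset of the same size, calls were 988 in LSKs, 1236 in GMPs and 174 in the interaction. Between compartments that subset gave 3033 calls in WT and 4222 in URE. The 194 interaction calls became 672 in DESeq2, 1047 with the block, 538 with the block nested in cell type (added after seeing the data), 572 with the term and 2 in replicates 2 and 3. Counts of 5 or fewer for Runx1t1 in GMPs limit every statement on it there.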
